A study of Mus musculus with 4 samples.

Results

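Mature Ccr7 dendritic cells of the mouse carotid artery were followed after wire injury, in which a wire drawn through the vessel strips its inner lining. They were chosen by a gate on unique molecular identifiers (UMIs, 1 per captured RNA molecule) in single-cell RNA-sequencing libraries. A member had at least 3 UMIs of Ccr7, Fscn1 and Ccl22 together with at least 2 of these genes seen and Ccr7 among them, at least 0.3% of its UMIs in the class II genes H2-Aa, H2-Ab1 and Cd74, no UMI of Cd3d, Cd3e or Cd3g and at most 1 UMI of Cd209a. Barcodes first had to hold at least 500 genes and 1000 UMIs with at most 10% mitochondrial UMIs. The gate found 64 cells among the 4094 barcodes of days 3, 7 and 14 that passed this filter (6161 barcodes were deposited over all 4 libraries). They comprised 22, 38 and 4 cells of days 3, 7 and 14. The libraries came from carotid arteries of male C57BL/6 mice, 11 weeks old before injury, taken uninjured (day 0) or on days 3, 7 and 14 after wire injury. At least 5 arteries were pooled per time point, thrombosed vessels were left out, and each time point was 1 library, so a day and its library cannot be told apart and intervals between days cover counting error only.

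Dendritic cells take up antigen in tissues, and a part of them then matures, loses uptake receptors and leaves for the draining lymph node. Ccr7, the receptor for the lymph node chemokines Ccl19 and Ccl21, guides this migration, Fscn1 bundles actin in the cell's protrusions, and Ccl22 attracts T cells that carry Ccr4. Maturation runs through NF-kB, with Relb and Rel as typical subunits in these cells, and raises costimulatory molecules as well as inhibitory ligands such as Cd274 (PD-L1). The cells from which they arise are type 2 conventional dendritic cells, marked in the mouse by Cd209a, Clec10a and Mgl2 in part, and type 1 cells, marked by Xcr1 and Clec9a.

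The 3 gating genes chose the members, so their levels are given as a description. Ccr7 stood at 1419, 2431 and 2485 CPM (CPM: UMIs of a gene per 1000000 UMIs summed over the members) at days 3, 7 and 14, Fscn1 at 1598, 1893 and 2239.8 CPM, and Ccl22 at 3083, 858 and 52.5 CPM. Of the 64 cells, 0, 1 and 1 of days 3, 7 and 14 held exactly 3 UMIs of the trio, while 22, 34 and 3 held 10 or more. No barcode missed the gate by having 2 UMIs of the trio, 2 day 7 barcodes missed it by Cd209a alone, 1 by Cd3 alone and 1 by the lack of Ccr7. Members had median UMI counts of 17103.5, 13515 and 13175, and the sums over members were 358047, 507177 and 57148 UMIs. Barcode sequences were shared between libraries (152 between days 0 and 3, 1 between days 3 and 7, 64 between days 7 and 14), but none of the shared ones was a member. Among the members, 2 of day 7 had a doublet score among the highest of their library. Without them 18 of the 66 listed or named genes past 2-fold between days 3 and 7 fell under it or turned, among them C1qa, C1qb, C1qc, Atf3, Egr1, Mki67, Birc5, Hk2 and Stat5a.

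Members made up 1.84% (22 of 1196 barcodes, 95% exact binomial interval 1.16 to 2.77) of the barcodes at day 3, 1.88% (38 of 2018, 1.34 to 2.58) at day 7 and 0.455% (4 of 880, 0.124 to 1.16) at day 14. None was found among the 249 barcodes of day 0, and a count of 0 there allows a share of up to 1.20% by a floor of 3 counts and of up to 1.47% by the exact interval. The ratio of the shares of day 7 and day 3 was 1.02 (95% exact interval 0.590 to 1.82), and that of day 14 and day 7 was 0.241 (0.0626 to 0.670). The fall at day 14 was thus larger than counting error, while the shares of days 3 and 7 differed by less. After each barcode was thinned to 2000 UMIs, which left out shallower barcodes, the gate found 17 of 1073, 32 of 1841 and 1 of 806 barcodes at days 3, 7 and 14. Cells of a Cd209a gate (at least 2 UMIs of Cd209a, the same class II minimum and no Cd3, under 3 UMIs of the trio) numbered 109 (9.11%), 222 (11.0%) and 13 (1.48%), with ratios of shares of 1.21 (0.956 to 1.53) for day 7 to day 3 and 0.134 (0.0704 to 0.234) for day 14 to day 7. After thinning, the ratio of day 7 to day 3 was 1.46 (1.08 to 1.99) for Cd209a cells and 1.10 (0.591 to 2.11) for members. Cells of an Xcr1/Clec9a gate (at least 2 UMIs of both genes together, otherwise alike with at most 1 Cd209a UMI) numbered 6, 13 and 4. Members therefore formed 16.1% (10.3 to 23.3), 13.9% (10.0 to 18.6) and 19.0% (5.45 to 41.9) of the 3 gates at days 3, 7 and 14, shares whose intervals overlap.

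**Figure D1:**
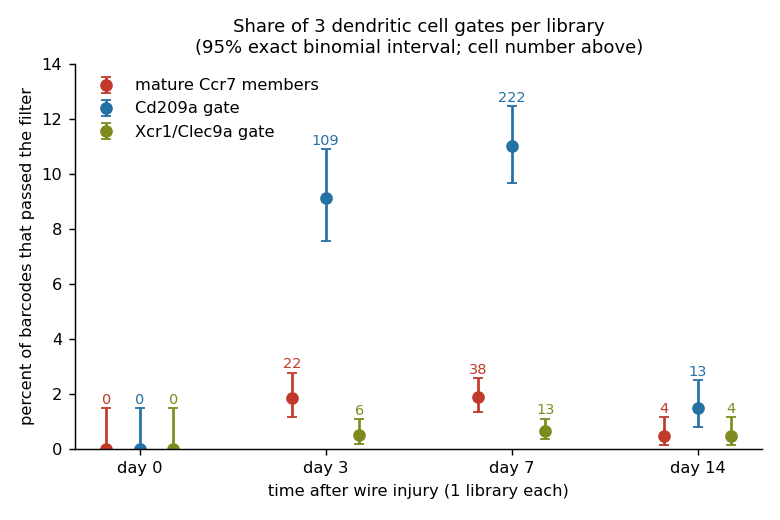
Percent of the barcodes that passed the filter (y axis) in the mature Ccr7, Cd209a and Xcr1/Clec9a gates at days 0, 3, 7 and 14 (x axis, 1 library each), with 95% exact binomial intervals and the cell number above each point. Members held 1.84% and 1.88% at days 3 and 7 and 0.455% at day 14, and Cd209a cells fell from 11.0% at day 7 to 1.48% at day 14.

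The label was checked against markers that the gate did not use. Of 12 further markers of mature dendritic cells, 11 could be tested and all 11 were higher in the members than in either other gate, with median log2 fold changes of 4.90 against Cd209a cells and 5.88 against Xcr1/Clec9a cells (medians over all genes tested, -0.03 and -0.01). The 12 were Cacnb3, Il4i1, Socs2, Tmem123, Cd83, Relb, Traf1, Marcksl1, Anxa3, Apol7c, Nudt17 and Tbc1d4. These genes were read in the same cells that the gate chose, so genes that travel with Ccr7, Fscn1 or Ccl22 were selected along with them. Several, such as Relb, Traf1, Cacnb3, Cd83, Il4i1 and Socs2, are counted again in lists below, which are therefore not separate support for the label. The dendritic cell genes Flt3, Zbtb46, Itgax and H2-DMb2 summed to 525, 404 and 507 CPM at days 3, 7 and 14 and none of them was at 0. In Cd209a cells they summed to 425, 444 and 462 CPM. Against these cells 2 of the 4 genes were higher and 1 lower in the members, beside 14.4% and 12.5% of all genes tested. T cell markers, 3 of whose 7 genes the gate held at 0, summed to 2.79, 9.86 and 0 CPM and the natural killer and mast cell lists to at most 2.79 CPM. B cell markers summed to 11.2, 47.3 and 105 CPM and were lower than in both other gates on each day. Markers of innate lymphoid cells summed to 413, 258 and 122 CPM, nearly all of it Il7r (413, 254 and 122 CPM), while Gata3 was at 0. Plasmacytoid markers summed to 654, 294 and 210.0 CPM, all of it Bst2 and Tcf4 on days 3 and 14, and Siglech and Ly6d were at 0. Fibroblast markers summed to 75.4, 351 and 385 CPM, against 26583, 44286 and 53884 CPM in a gate for fibroblasts. Macrophage and monocyte markers summed to 377, 1404 and 297 CPM, and 595 of their 712 UMIs at day 7 lay in 1 cell, one of the 2 with a high doublet score. In Cd209a cells this list summed to 4049, 5321 and 2187 CPM, and in Xcr1/Clec9a cells to 1146, 3378 and 511 CPM. Whether the Cd209a gate also held cells derived from monocytes was not tested. A level lower than there is therefore not read as a loss on maturation.

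To describe how the members differed from other dendritic cells of the same vessels, UMIs were summed per library and gate and compared with edgeR's quasi-likelihood test, with the library as a block and Benjamini-Hochberg adjustment over 5409 genes. Sums of under 5 barcodes were left out, so both contrasts rested on the libraries of days 3 and 7, and the day 14 values stand beside them as a description. Against Cd209a cells, 778 genes (14.4% of those tested) were higher and 675 (12.5%) lower in the members at adjusted p under 0.05. Against Xcr1/Clec9a cells, 672 (12.4%) were higher and 472 (8.73%) lower. List counts given below are to be read beside these shares of all genes. DESeq2 called 432 higher and 237 lower, and 402 and 229, and shared 644 of the 1453 calls against Cd209a cells and 625 of the 1144 against Xcr1/Clec9a cells. With each sum scaled to its total UMIs in place of edgeR's TMM factors, a setting chosen after seeing the data, the median log2 fold change of all genes moved from -0.03 to -0.34 and from -0.01 to -0.35, and the counts were 563 higher and 1080 lower, and 462 and 818. No gene called under TMM turned its direction there. CPM levels printed beside a fold change are on the total UMI scale, so a fold change can stand about 0.3 above what they give. Both contrasts share the members' sums and are therefore not independent of each other. With the day 14 sums included and the day 7 library left out, the counts fell to 178 higher and 134 lower against Cd209a cells and to 209 and 103 against Xcr1/Clec9a cells. With the day 3 library left out instead they were 338 and 325, and 311 and 237.

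**Figure D2:**
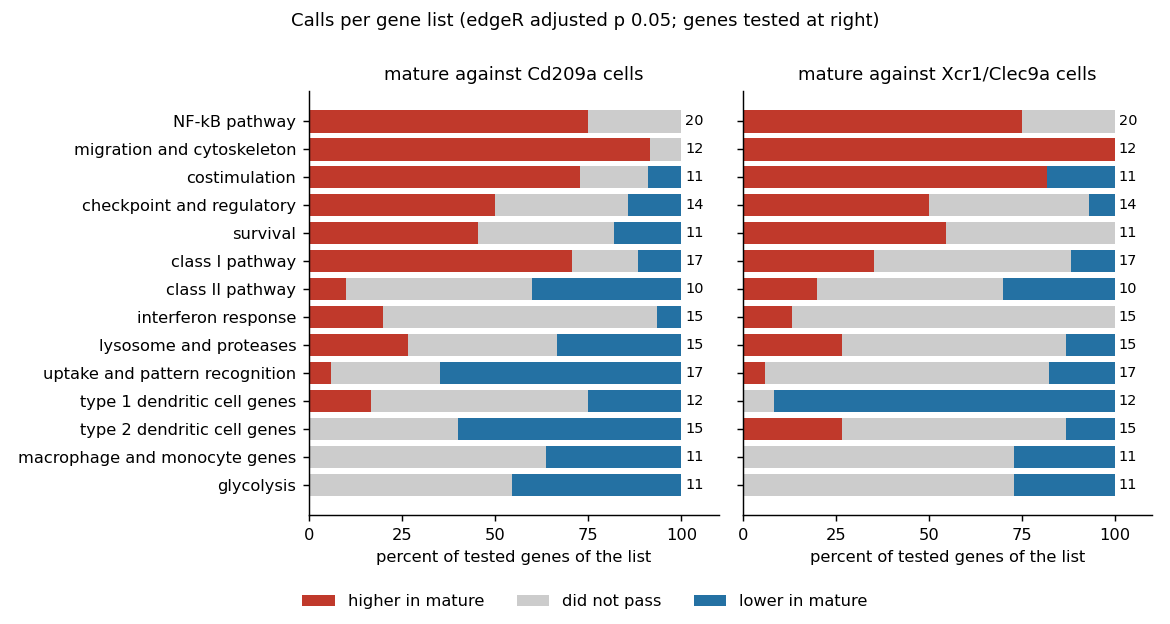
Percent of the tested genes of each list (x axis, number tested at the right) that were higher in the mature Ccr7 members, lower, or did not pass edgeR's adjusted p of 0.05, against Cd209a cells (left) and Xcr1/Clec9a cells (right). In the NF-kB list 15 of 20 genes were higher in either contrast and none lower, and 11 of 12 type 1 genes were lower against Xcr1/Clec9a cells.

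Genes of the NF-kB pathway were higher in the members. Of 20 genes listed and tested, 15 were higher and none lower against Cd209a cells (median log2 fold change 2.00), and 15 were higher and none lower against Xcr1/Clec9a cells (2.66), beside 14.4% and 12.4% of all genes. Relb, the subunit of the slower non-canonical branch, measured 665, 868 and 962 CPM in the members at days 3, 7 and 14, 39.5, 63.2 and 61.6 CPM in Cd209a cells and 14.3, 25.7 and 0 CPM in Xcr1/Clec9a cells. The 3 libraries did not overlap between gates, and the log2 fold changes were 4.23 ± 0.25, adjusted p = 9.04e-05 and 5.58 ± 0.35, adjusted p = 0.000291. Per cell, Relb ranged widely: its lowest, median and highest levels were 0, 6.21 and 16.7 UMIs per 10000 at day 3 and 0, 8.61 and 17.6 at day 7. Map3k14, the kinase that starts the non-canonical branch, was higher by 2.67 ± 0.30, adjusted p = 0.000801, on the log2 scale against Cd209a cells. Rel, a subunit of the canonical branch, measured 587, 832 and 997 CPM against 130.3, 181 and 413 CPM in Cd209a cells (2.49 ± 0.22, adjusted p = 0.000323). Nfkbia, the inhibitor that NF-kB itself induces, measured 1153, 1394 and 1539.9 CPM in the members and 255, 821 and 1620.2 CPM in Cd209a cells (1.82 ± 0.36, adjusted p = 0.00878), and the day 14 values did not keep that order. The adaptor Traf1 stood at 1117, 1197 and 1295 CPM against 211, 382 and 653 CPM (2.31 ± 0.28, adjusted p = 0.001) and the ubiquitin ligase Birc2 at 679, 554 and 472 CPM against 33.6, 51.8 and 37.0 CPM (4.16 ± 0.31, adjusted p = 0.000176). Nfkb1 did not pass against Cd209a cells (0.78 ± 0.28, adjusted p = 0.082) and was higher against Xcr1/Clec9a cells (2.30 ± 0.34, adjusted p = 0.00385). Nfkbie, Nfkbiz and Traf3 passed in neither contrast.

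The promoters of the listed NF-kB genes were read from RefSeq windows of mouse build GRCm38.p6, which run from 250 bases before to 50 after a gene's start. The kB consensus, searched on both strands with overlapping matches counted, was present in a window of 8 of the 17 NF-kB genes with an entry (47.1%, 20 genes listed) and in 1388 of 27025 genes of the whole table (5.14%). The share of the NF-kB list depends only on which genes it holds, not on their levels in these cells. Among the genes higher against Cd209a cells, 78 of the 626 with an entry held it (12.5%, 80.5% of genes matched), beside 287 of 4330 among all genes tested (6.63%). With 79.9% matched, that background is just under the 80% asked of a set, so nothing is read from the pair. For 5 other lists fewer than 80% of genes had an entry and the check is void, among them class II (3 of 11 held it) and the further markers of mature dendritic cells (0 of 8). Windows of 4 genes with a match, all higher in the members in both contrasts, are shown to let the match be seen in place. They are 2 subunits, the inhibitor Nfkbia and the costimulatory receptor Tnfrsf9 (4-1BB). Capitals mark the kB matches, and overlapping matches are joined. For Rel (chr11:23770920-23771219, minus strand) the first match starts 92 bases before the gene's start, for Nfkb2 (chr19:46304487-46304786, plus strand, one of its 3 starts) 39 before, for Nfkbia (chr12:55492598-55492897, minus strand) 29 before, and for Tnfrsf9 (chr4:150927749-150928048, plus strand, one of its 2 starts) 43 before.
Rel: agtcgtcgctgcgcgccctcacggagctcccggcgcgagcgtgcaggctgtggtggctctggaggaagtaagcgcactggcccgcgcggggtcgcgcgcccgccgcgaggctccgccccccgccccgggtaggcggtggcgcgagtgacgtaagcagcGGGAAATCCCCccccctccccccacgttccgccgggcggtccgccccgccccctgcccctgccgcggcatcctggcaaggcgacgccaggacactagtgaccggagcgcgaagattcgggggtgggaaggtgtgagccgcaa
Nfkb2: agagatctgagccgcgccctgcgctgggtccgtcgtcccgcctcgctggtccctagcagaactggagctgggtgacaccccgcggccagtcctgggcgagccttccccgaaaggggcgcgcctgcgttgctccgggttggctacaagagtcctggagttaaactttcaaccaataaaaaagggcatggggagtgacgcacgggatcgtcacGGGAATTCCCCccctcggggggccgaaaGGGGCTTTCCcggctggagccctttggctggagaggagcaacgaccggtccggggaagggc
Nfkbia: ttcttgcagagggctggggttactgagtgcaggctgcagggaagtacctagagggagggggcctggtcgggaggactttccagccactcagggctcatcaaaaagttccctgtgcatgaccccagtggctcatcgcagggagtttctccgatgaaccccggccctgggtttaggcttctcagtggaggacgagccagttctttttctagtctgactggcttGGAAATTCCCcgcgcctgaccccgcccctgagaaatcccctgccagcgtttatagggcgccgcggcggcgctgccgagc
Tnfrsf9: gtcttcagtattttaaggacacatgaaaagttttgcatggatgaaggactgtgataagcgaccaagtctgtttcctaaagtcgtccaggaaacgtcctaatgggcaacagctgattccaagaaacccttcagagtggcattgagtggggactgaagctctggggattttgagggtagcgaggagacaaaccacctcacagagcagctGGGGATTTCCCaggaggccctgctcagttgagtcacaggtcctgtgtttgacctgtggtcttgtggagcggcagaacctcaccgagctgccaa
A match describes the letters of the window, and binding was not measured.

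Most genes of a list for migration and the cytoskeleton were also higher. The list holds genes of other roles too, and Cacnb3, Marcksl1 and Tbc1d4 are also among the further markers above. Migration itself was not measured. Of 12 tested, 11 were higher and none lower against Cd209a cells (median log2 fold change 2.89) and all 12 were higher against Xcr1/Clec9a cells (4.68). Cacnb3, a calcium channel subunit, measured 531, 576 and 350.0 CPM in the members, 0.494, 3.10 and 0 CPM in Cd209a cells and 7.16, 8.55 and 25.6 CPM in Xcr1/Clec9a cells (8.36 ± 0.45, adjusted p = 8.3e-05, and 6.48 ± 0.55, adjusted p = 0.000609). Its levels in single members ran from 0 over a median of 4.15 to 13.1 UMIs per 10000 at day 3 and from 0 over 6.04 to 49.3 at day 7. Samsn1, an adaptor of immune cell signalling, stood at 1100.4, 1337 and 1417 CPM against 46.4, 99.5 and 154 CPM (4.45 ± 0.29, adjusted p = 0.000112). Tbc1d4, a regulator of vesicle traffic, stood at 707, 1518 and 769.9 CPM against 26.2, 41.5 and 277 CPM (5.29 ± 0.33, adjusted p = 9.29e-05). Marcksl1, which binds actin, stood at 843, 702 and 1102 CPM against 32.1, 73.5 and 49.3 CPM (4.29 ± 0.48, adjusted p = 0.000732). The chemokine receptor Cxcr4 was higher by less, at 115, 162 and 210.0 CPM against 36.0, 90.8 and 61.6 CPM (1.50 ± 0.28, adjusted p = 0.00677), whereas the inflammatory receptors Ccr1, Ccr2 and Cx3cr1 were lower than in Cd209a cells. Ccr2, which draws monocytes and their descendants to inflamed tissue, stood at 103, 57.2 and 0 CPM in the members against 854, 558 and 548 CPM (-2.84 ± 0.31, adjusted p = 0.000644). Tmem176b was the listed gene that did not pass against Cd209a cells.

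Among secreted chemokines, Ccl5, which attracts T cells and monocytes, gave the largest difference from Xcr1/Clec9a cells in its list. It measured 1598, 2336 and 3605 CPM in the members, 12.3, 70.4 and 0 CPM in Cd209a cells and 0, 4.28 and 0 CPM in Xcr1/Clec9a cells, and the log2 fold changes were 6.20 ± 0.48, adjusted p = 0.000179 and 10.13 ± 0.80, adjusted p = 0.00053. Ccl5 was uneven among members: at day 3 the lowest, median and highest cell had 0, 7.49 and 122 UMIs per 10000 and at day 7 0, 12.2 and 265, and at day 14 1 of the 4 cells gave 199 of 206 UMIs. Cxcl16 stood at 938, 921 and 1102 CPM against 83.4, 258 and 259 CPM in Cd209a cells (3.04 ± 0.53, adjusted p = 0.00482). Ccl17, which like Ccl22 binds Ccr4, was higher than in Cd209a cells (3.17 ± 0.72, adjusted p = 0.0153), with an order that turned at day 14. Ccl2, Ccl4, Ccl6 and Cxcl10, chemokines of monocytes, macrophages and interferon responses, were lower than in Cd209a cells, so that 4 of 11 tested chemokines were higher and 4 lower. Against Xcr1/Clec9a cells 5 were higher and 1 lower.

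Cytokine genes moved in both directions (6 higher and 4 lower of 18 tested against Cd209a cells, 7 and 2 against Xcr1/Clec9a cells). Of all genes, 14.4% were higher and 12.5% lower against Cd209a cells, and 12.4% and 8.73% against Xcr1/Clec9a cells. The lower count of the second contrast is near that share. Il12b, the shared subunit of interleukins 12 and 23, was at 162, 78.9 and 35.0 CPM in the members and at 0 in every sum of both other gates, at least 198-fold higher than in Cd209a cells over days 3 and 7 when the absent reads are set to a floor of 3 counts over the group. That level was not general: 57 of the 58 day 3 UMIs came from 1 cell. The partner subunit Il12a, as well as Il10 and the tryptophan-degrading enzyme Ido1, had no UMI in any member. Among receptor genes, Il15ra stood at 81.0, 80.8 and 122 CPM against 5.43, 5.58 and 0 CPM in Cd209a cells (4.15 ± 0.40, adjusted p = 0.000387), Il2ra at 207, 144 and 35.0 CPM against 1.48, 7.13 and 0 CPM (5.48 ± 0.51, adjusted p = 0.000365), and Il7r at 413, 254 and 122 CPM against 34.1, 45.9 and 86.2 CPM (3.32 ± 0.34, adjusted p = 0.000849). Il2rg, the chain that these receptors share, and Il4ra did not pass (0.36 ± 0.23, adjusted p = 0.279, and 0.03 ± 0.27, adjusted p = 0.956). The interferon gamma receptor chain Ifngr1 went the other way, at 55.9, 55.2 and 35.0 CPM in the members, 465, 499 and 253 CPM in Cd209a cells and 351, 325 and 307 CPM in Xcr1/Clec9a cells. All 3 libraries were below both other gates (-2.81 ± 0.26, adjusted p = 0.000337, and -2.26 ± 0.27, adjusted p = 0.00169).

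Activating and inhibitory surface molecules were high in the same gate. Of 11 costimulatory genes tested, 8 were higher and 1 lower against Cd209a cells (median 1.69) and 9 and 2 against Xcr1/Clec9a cells (2.79). Cd83, a classical maturation marker, measured 514, 966 and 1207 CPM against 52.3, 142 and 696 CPM in Cd209a cells (3.33 ± 0.25, adjusted p = 0.000176). Cd40, the receptor for T cell help, stood at 237, 209 and 297 CPM against 36.0, 40.9 and 80.1 CPM (2.84 ± 0.34, adjusted p = 0.00102), and Cd86, a ligand of Cd28, at 237, 185 and 52.5 CPM against 79.0, 158 and 105 CPM (1.17 ± 0.35, adjusted p = 0.0424), the latter without the same order at day 14. Scaled to total UMIs, Cd86 did not pass (0.86, adjusted p = 0.0981). Tnfrsf9 had 137, 71.0 and 87.5 CPM in the members and 0, 0.62 and 0 CPM in Cd209a cells (7.86 ± 0.65, adjusted p = 0.000387). Cd48, a ligand of natural killer and T cell receptors, was the gene that was lower in both contrasts, at 89.4, 63.1 and 35.0 CPM against 293, 307 and 339 CPM and 329.6, 252 and 179 CPM.

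Of 14 checkpoint and regulatory genes tested, 7 were higher and 2 lower against Cd209a cells (median 1.79) and 7 and 1 against Xcr1/Clec9a cells (2.58). Cd274 measured 249, 449.5 and 332 CPM in the members, 15.8, 35.0 and 12.3 CPM in Cd209a cells and 7.16, 68.4 and 0 CPM in Xcr1/Clec9a cells (4.12 ± 0.32, adjusted p = 0.000199, and 3.50 ± 0.41, adjusted p = 0.00156), with no overlap between gates. Pdcd1lg2, the second PD-1 ligand, stood at 154, 130.1 and 17.5 CPM against 6.91, 13.0 and 0 CPM (4.08 ± 0.36, adjusted p = 0.00032), and Cd200, an inhibitory ligand for myeloid cells, at 189.9, 221 and 52.5 CPM against 1.48, 6.20 and 12.3 CPM (5.95 ± 0.40, adjusted p = 0.000134). Il4i1, a secreted enzyme that degrades aromatic amino acids, measured 1382, 755 and 612 CPM against 7.90, 10.5 and 0 CPM (7.04 ± 0.38, adjusted p = 8.3e-05). Socs2, an inhibitor of cytokine signalling, measured 656, 499 and 735 CPM against 16.8, 7.13 and 18.5 CPM (5.98 ± 0.34, adjusted p = 0.000158) and was at 0 in all Xcr1/Clec9a sums, at least 70.2-fold below the members. Lgals9 and Vsir, ligands of other checkpoints, were lower than in Cd209a cells.

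Survival genes divided. The antiapoptotic Bcl2a1 copies Bcl2a1a, Bcl2a1b and Bcl2a1d were higher in both contrasts, but their sequences are near-identical and counting may have moved reads between them; Bcl2a1d stood at 1480.2, 1159 and 1329.9 CPM against 281, 209.8 and 517 CPM. Bcl2 itself was lower than in Cd209a cells, at 2.79, 5.92 and 0 CPM against 48.4, 41.5 and 12.3 CPM (-2.94 ± 0.54, adjusted p = 0.00617). In all, 5 of 11 were higher and 2 lower against Cd209a cells, beside 14.4% and 12.5% of all genes. Against Xcr1/Clec9a cells 6 were higher and 0 lower, beside 12.4% and 8.73%. The count of lower genes against Cd209a cells is near the share of all genes.

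Genes for class I presentation, which shows peptides to CD8 T cells, were higher than in Cd209a cells in 12 of 17 and lower in 2 (median 1.31), and 6 were higher and 2 lower against Xcr1/Clec9a cells (0.40). B2m, the light chain, measured 2340.5, 4336 and 3377 CPM in the members, 1341, 1852 and 1275 CPM in Cd209a cells and 731, 1681 and 741 CPM in Xcr1/Clec9a cells (1.31 ± 0.19, adjusted p = 0.00208, and 1.84 ± 0.19, adjusted p = 0.00122). Psme2, an activator of the proteasome, stood at 1151, 903 and 1399.9 CPM against 177, 217 and 172 CPM and 523, 445 and 307 CPM (2.68 ± 0.24, adjusted p = 0.000323, and 1.43 ± 0.24, adjusted p = 0.00623). The peptide transporter genes Tap1 and Tap2 and the immunoproteasome genes Psmb8 and Psmb9 passed against Cd209a cells and not against Xcr1/Clec9a cells, where Psmb9 was lower only with total UMI scaling (-0.86, adjusted p = 0.0409). Psmb8, for example, measured 1259.6, 1236 and 1189.9 CPM in the members, 479.7, 616 and 468 CPM in Cd209a cells and 1297, 1112 and 972 CPM in Xcr1/Clec9a cells (1.50 ± 0.20, adjusted p = 0.0015, and 0.40 ± 0.20, adjusted p = 0.193). The chaperones Calr and Pdia3 were lower in both contrasts at days 3 and 7, Calr with 115, 179 and 717 CPM against 636, 727 and 573 CPM, and at day 14 the order turned.

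Genes of class II presentation, which shows peptides to CD4 T cells, were lower in 4 and higher in 1 of 10 tested against Cd209a cells, and lower in 3 and higher in 2 against Xcr1/Clec9a cells. The gate asked for H2-Aa, H2-Ab1 and Cd74, so these were not called. H2-Eb1, which the gate did not use, measured 10211, 7337 and 10412 CPM in the members and 10309, 9151 and 10491 CPM in Cd209a cells and did not pass (0.16 ± 0.18, adjusted p = 0.567, and -0.15 with total UMI scaling). The peptide exchange factors were lower: H2-DMa stood at 296, 231 and 140.0 CPM against 1050.3, 931 and 801 CPM (-1.61 ± 0.26, adjusted p = 0.00348), and H2-DMb1 at 209, 96.6 and 140.0 CPM against 1104, 906 and 789 CPM (-2.45 ± 0.33, adjusted p = 0.00174). Ciita, the master regulator of class II transcription, measured 204, 156 and 122 CPM against 393, 415 and 228 CPM in Cd209a cells (-0.87 ± 0.24, adjusted p = 0.0322) and did not pass against Xcr1/Clec9a cells (-0.54 ± 0.26, adjusted p = 0.172, and -0.88, adjusted p = 0.0426 with total UMI scaling). March1, a ubiquitin ligase that removes class II and Cd86 from the surface of immature cells, had 0, 5.92 and 0 CPM in the members, 80.4, 114 and 142 CPM in Cd209a cells and 201, 192 and 128 CPM in Xcr1/Clec9a cells (-4.49 ± 0.58, adjusted p = 0.00142, and -5.47 ± 0.59, adjusted p = 0.00128). Outside that list, H2-Eb2, a class II beta chain gene, was among the genes of largest fold, at 196, 185 and 140.0 CPM against 2.47, 1.86 and 0 CPM (6.71 ± 0.36, adjusted p = 8.3e-05); its sequence relation to H2-Eb1 makes the assignment of reads uncertain.

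Transcription factors of dendritic cells gave 10 higher and 5 lower of 22 against Cd209a cells and 7 higher and 3 lower against Xcr1/Clec9a cells. Irf8, needed by type 1 cells, took an intermediate level, with 388, 714 and 752 CPM in the members, 47.9, 102 and 437 CPM in Cd209a cells and 1419, 1343 and 2327 CPM in Xcr1/Clec9a cells (3.20 ± 0.31, adjusted p = 0.00042, and -1.07 ± 0.30, adjusted p = 0.0395). Batf3, its partner in type 1 cells, was higher than in Cd209a cells, at 170.4, 211 and 87.5 CPM against 77.0, 45.6 and 73.9 CPM (2.02 ± 0.31, adjusted p = 0.00284), and its difference from Xcr1/Clec9a cells was -0.04 ± 0.33, adjusted p = 0.95. Etv3, a repressor of the Ets family, measured 936, 893 and 1189.9 CPM against 87.9, 112 and 123 CPM and 93.1, 47.0 and 51.1 CPM (3.49 ± 0.30, adjusted p = 0.000277, and 4.12 ± 0.36, adjusted p = 0.000625). Spib, Stat4 and Stat5a were higher in both contrasts. Ikzf1 and Ahr, the receptor for aromatic ligands, were lower in both, Ahr with 19.6, 35.5 and 17.5 CPM against 64.2, 82.1 and 61.6 CPM and 208, 252 and 102 CPM.

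Genes that mark another type of dendritic cell were lower than in the cells of that type. Of 12 type 1 genes tested, 11 were lower and none higher against Xcr1/Clec9a cells (median -5.17, background 8.73% lower). Naaa, a lipid amidase, measured 16.8, 5.92 and 0 CPM in the members against 1419, 1202 and 1432 CPM in Xcr1/Clec9a cells (-6.61 ± 0.38, adjusted p = 0.000291). Wdfy4, needed for cross-presentation, measured 5.59, 3.94 and 70.0 CPM against 459, 492 and 1227 CPM (-6.31 ± 0.43, adjusted p = 0.000344), and the day 14 value rests on a sum of 4 cells. Of 15 type 2 genes tested, 9 were lower and none higher against Cd209a cells (median -2.84, background 12.5%). The lectin Clec10a stood at 8.38, 9.86 and 52.5 CPM against 689, 474 and 308 CPM (-5.75 ± 0.97, adjusted p = 0.00414), Mgl2 at 115, 17.7 and 0 CPM against 909, 467 and 524 CPM (-3.21 ± 0.82, adjusted p = 0.0239), and the integrin chain Itgam at 5.59, 5.92 and 0 CPM against 322, 157 and 111 CPM (-4.94 ± 0.44, adjusted p = 0.000315). Part of these genes, Cd209a above all, defined the gate of comparison. Against the opposite gate, 2 type 1 genes were higher and 3 lower than in Cd209a cells (median -1.48), and 4 type 2 genes were higher and 2 lower than in Xcr1/Clec9a cells (median 0.70). Of all genes, 14.4% were higher and 12.5% lower against Cd209a cells, and 12.4% and 8.73% against Xcr1/Clec9a cells.

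Genes of uptake and pattern recognition were lower than in Cd209a cells in 11 of 17 and higher in 1 (median -2.03), against 3 and 1 relative to Xcr1/Clec9a cells. Lysozyme Lyz2 measured 94.96, 112 and 0 CPM in the members and 2290.1, 2927 and 924 CPM in Cd209a cells (-4.37 ± 0.44, adjusted p = 0.000445), the mannose receptor Mrc1 61.4, 3.94 and 0 CPM and 436, 108 and 92.4 CPM (-2.93 ± 0.41, adjusted p = 0.00195), and the Fc receptor Fcgr3 11.2, 27.6 and 0 CPM and 132, 146 and 86.2 CPM (-2.54 ± 0.58, adjusted p = 0.0161). The exception was Ly75 (DEC-205), an endocytic receptor, at 112, 74.9 and 35.0 CPM against 0.494, 0.62 and 0 CPM in Cd209a cells and 14.3, 25.7 and 76.7 CPM in Xcr1/Clec9a cells (7.31 ± 0.52, adjusted p = 0.000176, and 2.41 ± 0.51, adjusted p = 0.015). Among lysosomal genes 4 were higher and 5 lower of 15 against Cd209a cells. Cst3, an inhibitor of cathepsins, was intermediate, with 8055, 9537 and 11444 CPM in the members, 2912, 3623 and 3715 CPM in Cd209a cells and 15053, 16818 and 13705 CPM in Xcr1/Clec9a cells (1.74 ± 0.09, adjusted p = 8.3e-05, and -0.52 ± 0.09, adjusted p = 0.00589).

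Of 11 glycolysis genes, 5 were lower and none higher against Cd209a cells (median -0.74) and 3 and 0 against Xcr1/Clec9a cells. Of all genes, 12.5% and 8.73% were lower. Ldha, which makes lactate, stood at 170.4, 142 and 140.0 CPM against 462, 385 and 289.5 CPM and 996, 659 and 460.2 CPM (-1.13 ± 0.23, adjusted p = 0.00924, and -2.04 ± 0.24, adjusted p = 0.0015). Of 8 cholesterol metabolism genes, 1 was higher against Cd209a cells and 2 against Xcr1/Clec9a cells, with none lower. Of all genes, 14.4% and 12.4% were higher, so these few calls are not read as a result of the list. The fatty acid binding protein Fabp5 measured 9069, 5915 and 1067 CPM in the members, 255, 209.8 and 320.3 CPM in Cd209a cells and 0, 12.8 and 0 CPM in Xcr1/Clec9a cells (5.30 ± 0.27, adjusted p = 8.3e-05, and 10.12 ± 0.42, adjusted p = 7.64e-05). Of 15 interferon response genes, 3 were higher and 1 lower against Cd209a cells (median -0.19), beside 14.4% and 12.5% of all genes. Gbp2 stood at 145, 260.3 and 105 CPM against 9.38, 46.5 and 0 CPM (3.35 ± 0.42, adjusted p = 0.00129). None of 8 proliferation genes passed in either contrast. In the list of dissociation and stress genes 1 was higher (Junb, which turned to -0.15 on the log2 scale without the library block) and 1 lower of 15 against Cd209a cells, while 5 were higher and none lower against Xcr1/Clec9a cells.

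**Figure D3:**
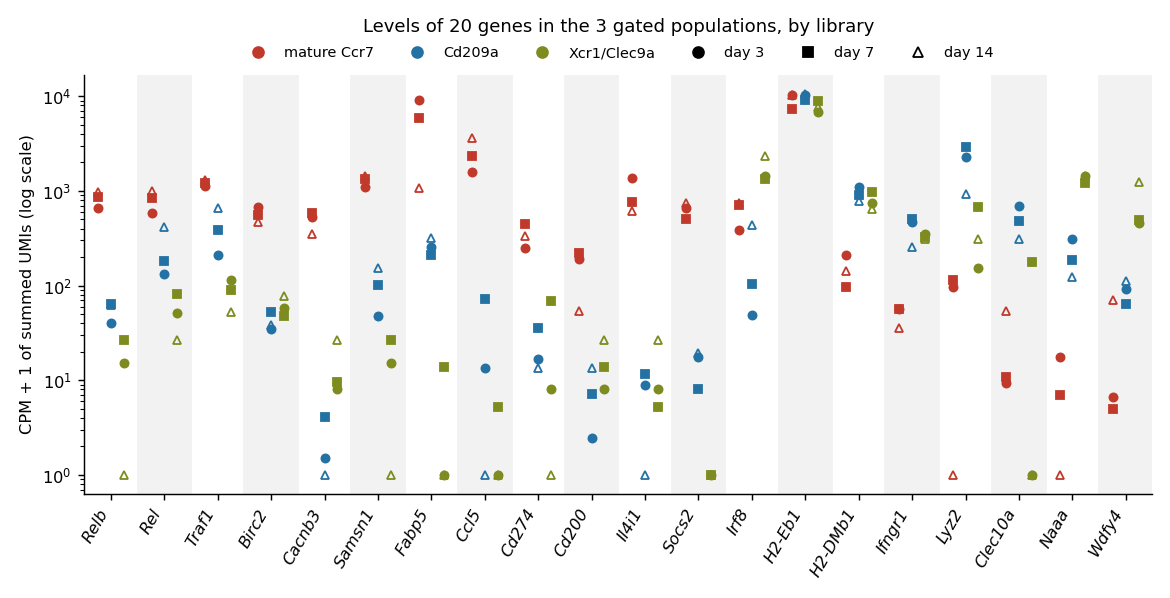
CPM + 1 of summed UMIs on a log scale (y axis) for 20 genes (x axis) in the mature Ccr7, Cd209a and Xcr1/Clec9a gates, with 1 point per library of day 3, 7 or 14 (open triangles: day 14). Relb, Cacnb3, Ccl5 and Il4i1 were above both other gates at days 3 and 7, Irf8 lay between them on these days, and Ifngr1, Naaa and Lyz2 were below both.

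By size of fold, the genes highest against Cd209a cells included, beside those above, Nudt17, a hydrolase of the Nudix family (226, 246 and 105 CPM against 0, 1.24 and 0 CPM; 8.40 ± 0.51, adjusted p = 0.000176), the serine protease inhibitor family gene Serpinb6b (282, 755 and 507 CPM against 2.96, 3.41 and 0 CPM; 7.59 ± 0.40, adjusted p = 0.000112), the transporter family gene Slco5a1, the melanoregulin gene Mreg and the adenylate cyclase gene Adcy6 (168, 122 and 140.0 CPM against 1.48, 0.93 and 0 CPM; 7.08 ± 0.40, adjusted p = 9.04e-05). The genes lowest included 3 without any UMI in a member, the leukotriene B4 receptor Ltb4r1 (at least 38.7-fold lower than its 199.9, 93.0 and 105 CPM in Cd209a cells), Ly6c2, a surface marker of monocytes (at least 17.8-fold), and F13a1, a coagulation factor subunit (at least 15.5-fold), each against a floor of 3 counts over the members. Against Xcr1/Clec9a cells, the genes highest included Serpinb6b, Il7r and Fas, the death receptor, which all were at 0 in that gate at days 3 and 7 and at least 69.6-, 39.9- and 16.4-fold higher in the members. The genes lowest included Plet1, Gcsam and Unc119b, at 0 in the members and at least 82.6-, 44.0- and 33.2-fold lower, and the integrin chain Itgae (CD103), at 2.79, 0 and 0 CPM against 107, 282 and 51.1 CPM (-7.02 ± 0.80, adjusted p = 0.00138). The Xcr1/Clec9a sums held 6 and 13 cells at days 3 and 7, which limits how low a level they can show.

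Within the members, days 3 and 7 were compared without a test, since each was 1 library. Of 4302 genes with at least 20 UMIs over both days, 220 (5.11%) were at least 2-fold higher at day 7 and 209 (4.86%) at least 2-fold lower, on a scale with 10 CPM added. None of the 20 NF-kB genes passed 2-fold in either direction, and at most 1 did under any of 4 other settings. The chemokine Ccl17 showed the largest fall by this measure (log2 ratio -3.66), just ahead of Cxcl3 (-3.64). That rank did not hold as a mean over cells, where Cxcl3 stood at -4.02, Ccl9 at -3.44 and Ccl17 at -3.26. Ccl17 measured 1542 CPM (552 UMIs) at day 3, 112 CPM (57 UMIs) at day 7 and 0 at day 14. The ratio of day 7 to day 3 was 0.0729 (95% exact interval 0.0545 to 0.0959), or 13.7-fold lower. It was seen in 16 of 22, 13 of 38 and 0 of 4 cells, and 5 cells of day 3 against 1 of day 7 held 10 or more UMIs of it. The highest cell of day 3 gave 39.3% of the UMIs, and without the top cell of each day Ccl17 stood at 1012 and 105 CPM. In Cd209a cells Ccl17 was at 79.0, 49.9 and 154 CPM, without such a fall. Ccl22, a gate gene, was also lower at day 7 than at day 3 and stood at 52.5 CPM at day 14.

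The chemokine Ccl9 fell from 483 to 31.5 CPM (173 and 16 UMIs; ratio 0.0653, 0.0365 to 0.109), and was seen in 16 of 22 and 9 of 38 cells. Gda, a guanine deaminase, fell from 366 to 35.5 CPM (131 and 18 UMIs; ratio 0.0970, 0.0558 to 0.159), seen in 19 of 22 and 8 of 38 cells. Both also stood lower at day 7 in Cd209a cells, Ccl9 at 581 and 292 CPM and Gda at 269 and 46.2 CPM, so that direction was not seen in the members alone. Of the uptake list, 5 of 10 genes were 2-fold lower at day 7 and none higher. Among these, Mrc1 stood at 61.4 and 3.94 CPM, and the receptor tyrosine kinase Axl, which binds dying cells, at 232 and 37.5 CPM (ratio 0.162, 0.0927 to 0.268) in 10 cells on each day. Of the interferon response list, 4 of 10 were lower and none higher, with Irf7 at 101 and 15.8 CPM and Ifit1 at 64.2 and 1.97 CPM, the latter seen in 4 and 1 cells.

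**Figure D4:**
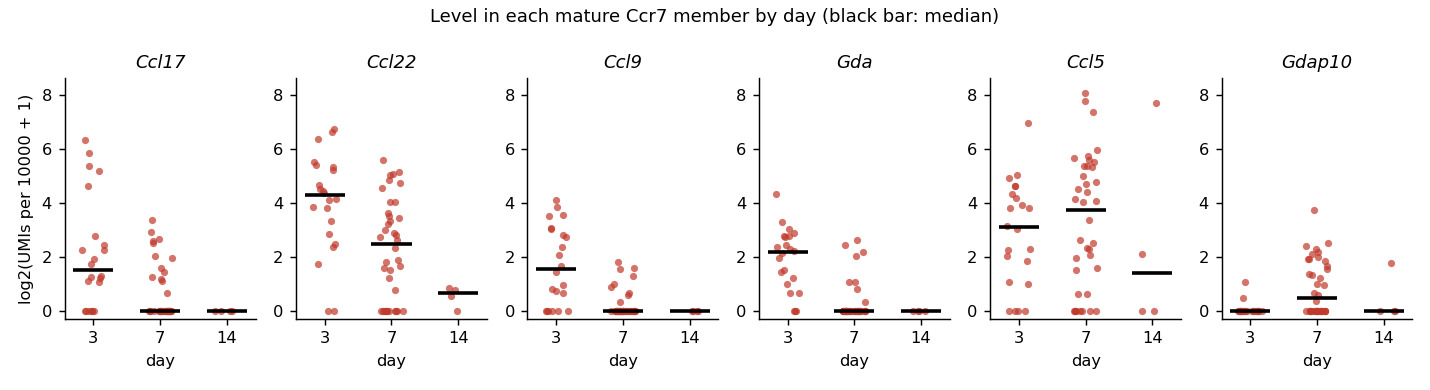
Level of 6 genes in each mature Ccr7 member, as log2(UMIs per 10000 + 1) (y axis), at days 3, 7 and 14 (x axis, 22, 38 and 4 cells, points spread sideways for view, black bar: median). Ccl17, Ccl9 and Gda had medians above 0 at day 3 and of 0 at day 7, and Gdap10 was seen in 2 of 22 and 20 of 38 cells.

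Gdap10 was higher at day 7 across many cells. It stood at 5.59 CPM (2 UMIs in 2 of 22 cells) and 140.0 CPM (71 UMIs in 20 of 38 cells), a ratio of 25.1 (6.69 to 211), and the top cell held 9.86% of its day 7 UMIs. In Cd209a cells Gdap10 stood at 12.3 and 33.8 CPM and in Xcr1/Clec9a cells at 7.16 and 47.0 CPM. The T cell costimulatory receptor gene Tnfrsf4 (OX40) stood at 39.1 and 195 CPM (ratio 4.99, 2.84 to 9.46), in 8 and 24 cells, and at 2.96 and 1.55 CPM in Cd209a cells. The tetraspanin Cd63 stood at 489 and 1075 CPM (ratio 2.20, 1.85 to 2.62) and at 22.7 and 30.4 CPM in Cd209a cells. Beside it, the fibroblast markers of the members, 75.4 and 351 CPM in sum, were past 2-fold higher at day 7 in 3 of 3 tested (median log2 ratio 1.97), and after thinning Cd63 was seen in 83.7% and 76.1% of cells of the fibroblast gate. Their part in the Cd63 values was not tested. Apol7c, of the apolipoprotein L family, stood at 11.2, 243 and 2555 CPM at days 3, 7 and 14, in 3 of 22, 10 of 38 and 3 of 4 cells, and was at 0 in Cd209a and Xcr1/Clec9a cells of days 3 and 7. For several of the largest increases 1 cell held most of the day 7 UMIs, 91.2% for Apoe, 96.2% for Cxcl9, 92.6% for Hist1h2ap and 90.5% for Hes1. With the 2 members of high doublet score left out, the log2 ratio went from 5.05 to 1.94 for Apoe, from 3.99 to 0.82 for Hist1h2ap and from 3.21 to 0.55 for Hes1, whereas Cxcl9 stood at 4.54 and 4.76. Apoe stood at 11.2 and 692 CPM, and at 65.7 CPM at day 7 without that cell.

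Genes that respond to tissue digestion and stress were higher at day 7 in 10 of 15 (median log2 ratio 1.28), and none was lower. The count was 6 of 15 without the 2 members of high doublet score and 6 of 15 as a mean over cells. Their summed level was 4971, 10858 and 7349 CPM in the members at days 3, 7 and 14. It stood at 5296, 11880 and 18192 CPM in Cd209a cells and at 4363, 8946 and 3733 CPM in Xcr1/Clec9a cells. In the fibroblast gate it stood at 7465, 9769 and 13164 CPM. It was thus higher at day 7 than at day 3 in every gate. At day 14 it was above its day 7 level in Cd209a and fibroblast gate cells and below it in the members and Xcr1/Clec9a cells. The heat shock gene Hspa1a measured 464 and 2218 CPM in the members and 617 and 2021 CPM in Cd209a cells, and the immediate early gene Jun 268 and 1264 CPM against 476 and 1195 CPM. The part of this difference between libraries in the other genes that differed between days was not tested.

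Members differed widely in class II. The 3 class II genes of the gate made up a lowest, median and highest share of 0.938%, 3.32% and 7.71% of a cell's UMIs at day 3 and of 0.326%, 2.11% and 5.67% at day 7. On day 14 the corresponding values were 0.377%, 3.12% and 6.14%. The day 7 minimum thus lay just above the 0.3% that the gate required, and 13 of 38 day 7 members were under 1%, against 1 of 22 at day 3 and 1 of 4 at day 14. H2-Ab1 had no UMI in 7 of the 38 day 7 members and in none of the others. Over the 38 cells, which share a library and differ in depth (Spearman's rho with total UMIs 0.40), the class II share went with H2-Eb1 (0.92), Ciita (0.65) and H2-DMa (0.65). It ran against Cacnb3 (-0.59) and Ccl5 (-0.47). Over the 22 cells of day 3 rho was 0.94 for H2-Eb1, 0.39 for Ciita, 0.12 for H2-DMa and -0.37 for Ccl5. For Cacnb3 it had the other sign (0.14). For the gate genes Ccr7 and Fscn1 rho was -0.57 and -0.41 at day 7 and -0.16 and -0.52 at day 3. The gate used the class II share and these genes to choose the cells, so nothing is read from their rho. Shares within a cell sum to a fixed whole, and no test was made.

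Day 7 members were split at 1%, a value chosen after these shares were seen. The gate itself used the class II share, so the levels on both sides are a description and no test. The 13 members below and the 25 at or above 1% held median UMI counts of 8325 and 15443. Ciita had 0 UMIs in the 13 cells and 79 in 16 of the 25 (0 and 198 CPM). H2-DMa stood at 37.2 and 283 CPM, and H2-Eb2 at 27.9 and 228 CPM. Ccl5 stood at 6787 and 1139 CPM (ratio 5.96, 95% exact interval 5.30 to 6.72), with cell medians of 39.3 and 3.19 UMIs per 10000. Of its 730 UMIs in the 13 cells, 221 lay in 1 cell and 196 in another, a spread that the interval does not cover. Serpinb6b stood at 2008 and 418 CPM, Gm13546 at 372 and 37.5 CPM, and Bcl2l14 at 279 and 35.0 CPM, all among the larger ratios of the genes read. Ccr7, a gate gene given as a description only, stood at 4156 and 1967 CPM. Cacnb3 stood at 1106 and 433 CPM. Relb, in contrast, stood at 967 and 841 CPM (ratio 1.15, 0.914 to 1.44), and Cd83 at 976 and 963 CPM. Intervals cover counting error among these cells alone. Barcodes that met every other part of the gate and fell below its class II minimum numbered 2, 11 and 0 at days 3, 7 and 14. Apart from those with 100 or more UMIs of the matrix genes Col1a1, Col3a1 and Dcn (1 and 2), they were 1 and 9 cells. The 9 day 7 cells had Ccl5 at 16113 CPM and Relb at 901 CPM, each gene seen in all 9, and no Ciita UMI. Ccr7, which the gate required in each of these cells, stood at 3282 CPM and is given as a description only. With them the share of day 7 would be 2.33% (1.72 to 3.09) and that of day 3 1.92% (1.22 to 2.87).

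**Figure D5:**
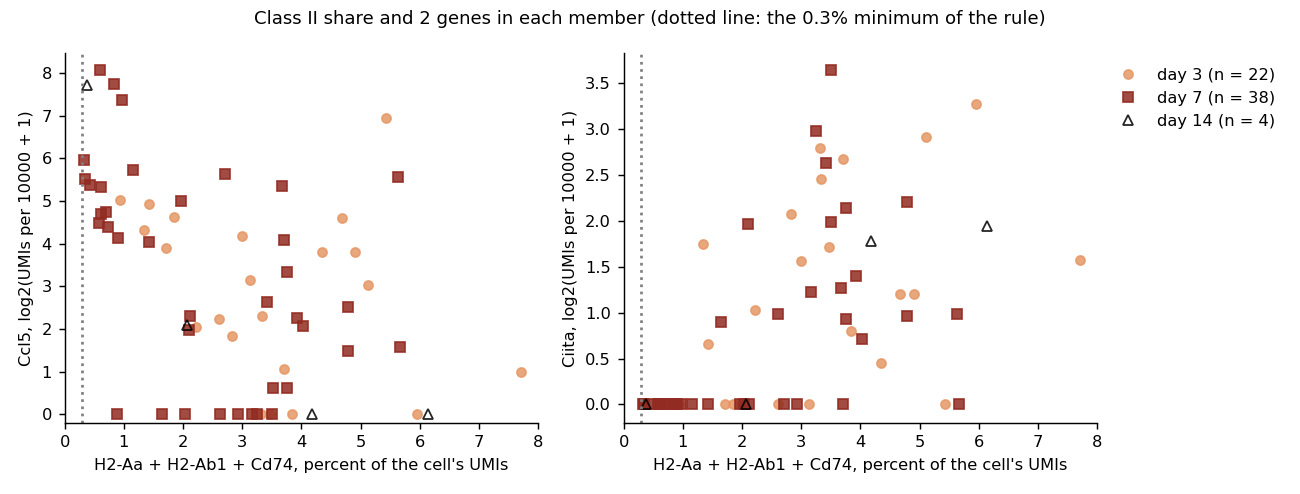
Level of Ccl5 (left) and Ciita (right) in each member, as log2(UMIs per 10000 + 1) (y axes), against the percent of its UMIs in H2-Aa, H2-Ab1 and Cd74 (x axes), for days 3, 7 and 14, with the 0.3% minimum of the gate as a dotted line. All 13 day 7 members under 1% are at 0 for Ciita, and 12 of them hold Ccl5.

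How many members carried a gene was also read at equal depth, with each cell thinned to 2000 UMIs and 0, 1 and 0 members of days 3, 7 and 14 left out as shallower. At days 3 and 7, Relb was then seen in 50% and 78.4% of members, 10.1% and 13.3% of Cd209a cells and 2.04% and 5.63% of fibroblast gate cells, a cell type of another lineage in the same libraries. Where fibroblasts may hold a gene's RNA themselves, as for Cacnb3 (8.16% and 7.04%, against 0% and 0.459% of Cd209a cells), their share is no measure of free RNA. Il4i1 was seen in 72.7% and 73.0% of members and in 0% and 0.704% of fibroblast gate cells, Cacnb3 in 59.1% and 62.2% of members, Ccl5 in 68.2% and 59.5% against 1.36% and 3.52%, and Cd274 in 31.8% and 64.9% against 0.680% and 2.11%. Ccl17 was seen in 45.5% and 10.8% of members and in none of the 147 and 142 fibroblast gate cells, and Ccl9 in 40.9% and 2.70% of members, the latter near the 1.41% of fibroblast gate cells. Gda was seen in 45.5% and 2.70% of members and in 34.9% and 10.1% of Cd209a cells. Before thinning, members had median depths of 17103.5 and 13515 UMIs and fibroblast gate cells of 34613 and 23927.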

How the data were processed

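Carotid artery cells of 4 time points were sequenced with a droplet 3′ v2 kit, 1 library each. The deposited values are raw UMI counts per gene and barcode, without normalization, made by the authors with Cell Ranger (3.0.2 per the file headers, another version in the study's methods). Those methods name a human genome build, so the mouse build was not given in the sources used here and no coordinates were taken from the files. Libraries held 333, 1689, 3001 and 1138 barcodes and 2672722, 18989081, 27973418 and 13329564 UMIs. Barcodes were filtered and gated as stated in the report. Doublets were kept in the main values. Scrublet (scanpy 1.11.5) marked 12, 1, 2 and 2 barcodes at its own threshold, so the highest scores at 0.8% per 1000 barcodes (1, 23, 72 and 10) were left out as an alternative.

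UMIs were summed per library and gate. Sums of at least 5 barcodes (7 sums) entered edgeR 4.0.16 (TMM scaling, filterByExpr, quasi-likelihood test with gate and library terms, 2 residual degrees of freedom), and the 12 genes of any gate were not called. Same-numbered sums of a library come from the same pooled vessels, which is the source of the pairing. Log2 fold changes are given with their standard errors. P-values measure how far the differences between gates varied between the libraries of days 3 and 7. All 3 gates share 1 fit, so the Xcr1/Clec9a sums also enter the spread used against Cd209a cells. These libraries are different days and not replicates of 1 condition. DESeq2 1.42.0 was an alternative. Scripts were tested on simulated data.

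Between days, CPM carry exact Poisson and ratios exact conditional binomial intervals, at 95%. Intervals and floors (3 counts) cover counting error only. Genes shown were those of 33 lists (369 of 371 genes are in the files), the 12 of largest fold per direction in each contrast (passing, same sign in every fitted library, mean of at least 50 CPM in the higher gate) and the 8 of largest fold per direction between days. Members and lists were chosen with earlier results of these data known. Other choices tried were the filter on low counts, the block, thinning to 2000 UMIs, the scale of the day ratios and leaving out libraries, doublets or the top cell of each gene.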

Additional observations from a re-analysis of the deposited data

How the results depend on the processing

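The members' shares by day stayed within their main intervals with doublets left out, at least 5 UMIs of the trio, at most 5% mitochondrial UMIs, thinning, or no class II minimum. DESeq2 called fewer genes than edgeR, 432 higher and 237 lower against Cd209a cells and 402 and 229 against Xcr1/Clec9a cells, and thinning to 2000 UMIs (849 genes tested) gave 168 and 134, and 116 and 93. Without the library as a replicate block the counts were 666 and 581, and 537 and 439; without the filter on low counts 1001 and 924, and 952 and 568; without doublets 795 and 694, and 669 and 513. Total UMI scaling, added after seeing the data, gave 563 and 1080, and 462 and 818, and 140 of 151 and 116 of 126 listed or named calls passed. Leaving out the library of day 3 or day 7 could not be fitted with 7 sums, and without day 14 the counts were 817 and 702, and 701 and 501. With the day 14 sums included, chosen after seeing the data (563 and 527, and 531 and 434), leaving out 1 library in turn gave 178 to 817 genes higher and 134 to 702 lower against Cd209a cells and 209 to 701 and 103 to 501 against Xcr1/Clec9a cells; the counts without day 3 were 338 and 325, and 311 and 237. Of the 151 listed or named calls against Cd209a cells, 101 also passed with DESeq2, 123 without the block, 148 without doublets and 69 of the 77 with a value after thinning. Of 126 against Xcr1/Clec9a cells these were 102 of 125, 101, 118 and 55 of 70. With day 14 included, 94 of 135 and 87 of 117 with a value passed without day 3, and 71 of 124 and 65 of 107 without day 7. Of the 1453 calls against Cd209a cells, 609 were shared without day 3 and 8 had the opposite direction. Without day 7 these were 308 and 10.

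Junb, higher against Cd209a cells, turned to -0.15 on the log2 scale without the replicate block, -0.17 with day 14 included, and -0.76 and -0.46 when day 3 or day 7 was then left out. Apoe, not called against Cd209a cells, turned to 1.66 without day 3, and Stmn1 to -1.46 without doublets. Genes 2-fold higher and lower at day 7 numbered 335 and 316 with 1 CPM added and 109 and 95 among 2115 genes with at least 50 UMIs. Without doublets they were 207 and 237, so that lower genes then outnumbered higher ones. They were 287 and 199 without the top cell and 301 and 259 as a mean of cells. The same 4302 genes gave 94 and 28 in Cd209a cells and 466 and 229 in Xcr1/Clec9a cells. The log2 ratio of day 7 to day 3 turned for C1qb (-1.06 without doublets, -0.28 without the top cell), Ccl3 (-0.32 without doublets, -0.69 as a mean of cells), Ier3 (-0.12) and Stmn1 (-0.19) without doublets, and became 0 for Htra1 without the top cell. Of 66 listed or named genes past 2-fold, 57 stayed past it as a mean of cells, 66 with 1 CPM added, 48 without doublets and 49 without the top cell. The causes were not tested. At day 14 the 4 members hold 57148 UMIs, so that 3 UMIs are 52.5 CPM.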
